A study of Mus musculus with 8 samples.

Results

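The subunits of the mitochondrial respiratory chain and of ATP synthase, together with the assembly factors and isoforms that carry the same family names, were examined in lactating mammary glands, either wild-type (WT) or lacking Th-POK (KO). Members were the genes whose symbol starts with Nduf, Uqcr, Cox4 to Cox8 or Atp5, or is Sdha, Sdhb, Sdhc or Sdhd. The gene table held 96 protein-coding genes of this kind (and 19 pseudogenes), of which 91 had a probe on the array, among 18749 genes with a probe. A level could be tested for 87 of the 91, among 14137 genes in all. Th-POK, the product of Zbtb7b, is a zinc finger transcription factor known for its part in the CD4 T cell lineage. RNA was taken from No. 4 mammary glands at lactation day 1, 4 WT and 4 KO females of C57/Bl6 background, one gland sample per array. Age matched females were used per the methods. The knockout was not restricted to a cell type, so epithelium, fat, vessels and immune cells of the gland all lacked Th-POK. The comparison asks whether the loss of Th-POK at the onset of milk production went with a change in the transcripts of the oxidative phosphorylation machinery.

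Complexes I to IV pass electrons from NADH and succinate to oxygen and pump protons out of the mitochondrial matrix, except complex II, which pumps none. Complex V, the ATP synthase, lets the protons flow back and makes ATP. Complexes I, III, IV and V combine subunits encoded in the nucleus with a few encoded in mitochondrial DNA, and each needs dedicated assembly factors that do not stay in the finished enzyme. The secretory epithelium of a lactating gland is rich in mitochondria, since the synthesis of milk fat, protein and lactose consumes much ATP.

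Values are log2 signals after quantile normalization between arrays, and a difference is KO minus WT on that log2 scale, with its standard error (SE) from limma. A gene was called where the limma p, adjusted by Benjamini-Hochberg over all 14137 genes, was under 0.05. Probes differ in how brightly they bind, so levels are compared between arrays and not between genes. The share of probes clearly detected ran from 66.9% to 75.3% in WT and from 66.8% to 70.9% in KO. The targeted gene, Zbtb7b, read 9.90, 10.42, 10.13 and 10.23 in WT and was not well above background on any KO array. Each genotype had a slide of its own, so slide and genotype cannot be told apart. Of the 6 milk protein genes, limma called 0, also at an unadjusted p under 0.05, while 3 of 7 luminal epithelial markers (Krt18, Epcam and Cldn3), 2 of 11 adipocyte markers (Plin1 and Cfd), 3 of 6 neutrophil markers on the array (Ltf, and Ngp and Camp, which were above background on the KO arrays only and so entered through the group where they were high), 1 of 6 fibroblast markers (Dcn) and 1 of 4 B cell markers (Cd79b) were higher in KO. Of 7 T cell markers 2 (Cd3e and Cd4) and of 8 basal epithelial markers 1 (Krt17) were lower. For comparison, limma called 7.53% of all genes higher and 8.96% lower. Called or not, 5 of 7 luminal, 9 of 11 adipocyte, 6 of 6 fibroblast and 2 of 4 B cell markers were higher in KO. Lower in KO were 7 of 7 T cell and 6 of 8 basal markers. The summed log2 level of the luminal markers ran from 17.76 to 18.09 in WT and from 18.12 to 18.33 in KO, and that of the neutrophil markers from 16.04 to 16.61 and from 17.37 to 18.04. Such a sum is set mostly by the brightest genes of a list. The mean log2 level of the neutrophil markers was far lower, 7.61 to 8.29 in WT and 9.74 to 10.8 in KO. In whole glands, fewer cells of a type and less RNA per cell cannot be told apart, and the part of these shifts in the differences below was not tested.

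The subunits of all 5 complexes differed little between genotypes, and the clearest differences were in the complex I assembly factors. Of the 87 members tested, 2 were lower in KO past the threshold and 0 were higher, by limma with an adjusted p under 0.05. Of all genes tested, 8.96% were called lower, 7.53% higher and 16.5% in either direction. Both called members, Ndufaf4 and Ndufaf7, are assembly factors of complex I. At an unadjusted p under 0.05, 9 members were lower and 1 was higher, where 19.6% of all genes were lower and 16.7% higher. The median difference was -0.09 over the members and -0.02 over all genes. Called or not, 72.4% of the members were lower in KO, against 52.4% of all genes. A difference within 0.25 of 0 was found for 70 of the 87 members (80.5%), against 46.4% of all genes tested. For 4 members all KO arrays lay below all WT arrays, and for 0 they lay above. Among all genes, 12.9% had every KO array below and 11.1% every KO array above.

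**Figure D1:**
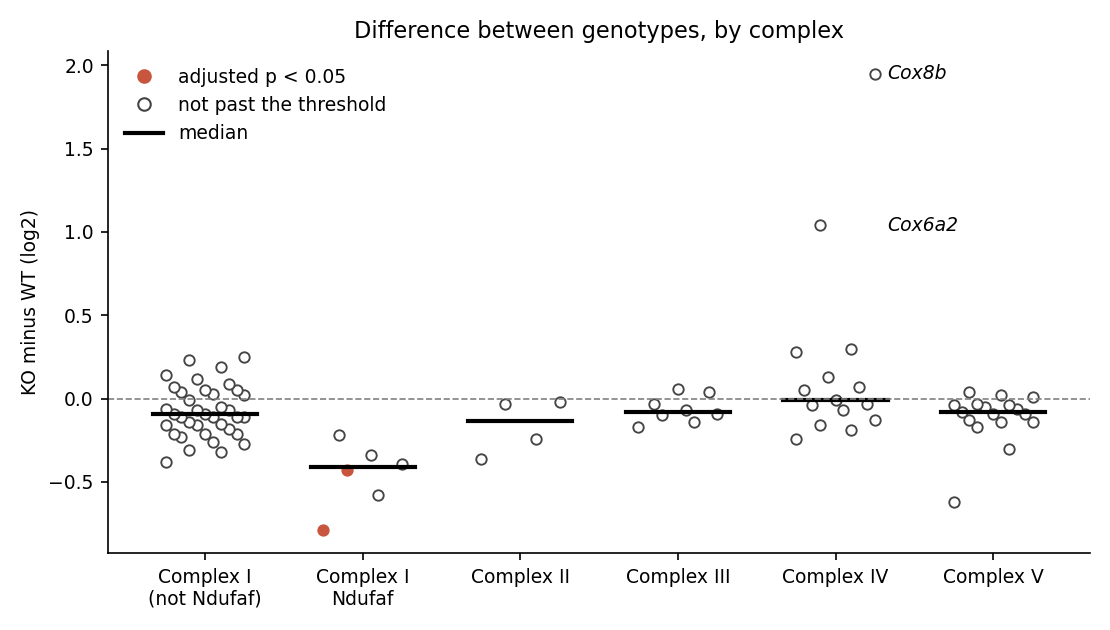
KO minus WT difference (log2, vertical axis) of each of the 87 tested members, grouped by complex, with the Ndufaf assembly factors of complex I apart. Each point is a gene, filled where the adjusted p was under 0.05, and the bar is the group's median. The medians of the subunit groups sit between -0.13 and -0.01 and that of the Ndufaf factors at -0.41. Cox8b (1.95) and Cox6a2 (1.04) stand above the rest without passing the threshold.

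The Ndufaf name is carried by 7 members, which are matrix or inner membrane proteins. They build complex I from its modules and are absent from the mature enzyme. All 6 that could be tested were lower in KO, between -0.22 and -0.79, with a median of -0.41. Each had an unadjusted p under 0.05 (19.6% of all genes did in that direction), and 2 of them, Ndufaf4 and Ndufaf7, passed the adjusted threshold in limma (8.96% of all genes). For 4 of them (Ndufaf1, Ndufaf2, Ndufaf4 and Ndufaf7) no KO array reached the lowest WT array, as for 12.9% of all genes.

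The upstream sequences of the called pair are shown because these are the members called lower, and because letters of the NRF1 motif, named for a factor known to act on many nuclear genes of mitochondria, occur in 1 of them. Each is the stretch of 250 bases before the annotated start, 5′ to 3′ along the gene, from RefSeq on build GRCm38.p6. Capitals mark the NRF1 letters GCGCATGC on either strand, whose copies overlap in the palindrome of Ndufaf4. Ndufaf4 lies on the plus strand at chr4:24897833-24898082 and Ndufaf7 on the plus strand at chr17:78936885-78937134.
Ndufaf4: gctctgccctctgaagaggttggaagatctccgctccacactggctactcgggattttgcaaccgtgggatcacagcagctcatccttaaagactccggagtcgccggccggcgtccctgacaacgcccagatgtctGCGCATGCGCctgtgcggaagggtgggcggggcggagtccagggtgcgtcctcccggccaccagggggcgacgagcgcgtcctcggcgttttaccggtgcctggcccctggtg
Ndufaf7: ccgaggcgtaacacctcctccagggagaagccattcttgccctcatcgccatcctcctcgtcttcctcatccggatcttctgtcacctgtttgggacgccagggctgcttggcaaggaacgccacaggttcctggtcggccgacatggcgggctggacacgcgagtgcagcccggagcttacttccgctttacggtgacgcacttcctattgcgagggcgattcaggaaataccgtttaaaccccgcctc
The Ndufaf4 match begins 113 bases before the start, and the Ndufaf7 stretch holds no match to these letters. A further match in Ndufaf4 begins just past the start, outside the stretch shown.

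Ndufaf4, an early assembly factor that works with Ndufaf3, read 11.26, 12.01, 11.60 and 11.26 on the WT arrays and 10.44, 10.81, 10.78 and 10.94 on the KO arrays. All 4 KO values lay below the lowest WT value. The difference was -0.79 (SE 0.19, n = 4 and 4, limma adjusted p = 0.0299), a level 1.73-fold lower in KO. Its other 2 probes differed by -0.79 and -0.58. Ndufaf7, a mitochondrial methyltransferase, read 11.01, 10.99, 11.17 and 10.97 in WT and 10.58, 10.54, 10.66 and 10.64 in KO. The arrays of each genotype lay close together and the genotypes did not overlap. The difference was -0.43 (SE 0.09, limma adjusted p = 0.0218), or 1.35-fold. A second, dimmer probe of Ndufaf7 differed by -0.15, and with the mean of both probes in place of the brighter one Ndufaf7 was not called.

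Ndufaf2, which attends the late intermediate of the enzyme, read 11.12, 11.22, 11.25 and 11.47 in WT and 10.67, 10.89, 10.90 and 11.04 in KO. The groups did not overlap, and the difference of -0.39 (SE 0.12) had a limma adjusted p of 0.0554. Ndufaf5, a hydroxylase acting on the core subunit Ndufs7, read 7.76, 8.51, 8.16 and 8.65 in WT and 7.51, 7.63, 7.57 and 8.04 in KO. The highest KO array, KO4, lay above the lowest WT array, WT1, and the difference of -0.58 (SE 0.21) had an adjusted p of 0.0857 in limma. The deviations of arrays of the same replicate number correlated at 0.16 to 0.30 across genes, and those of different numbers at -0.32 to 0.34, with 4 of 12 such pairs over 0.1. With the number as a replicate block Ndufaf2 (limma adjusted p = 0.0416) and Ndufaf5 (0.0358) were called too, which made 4 of the 6 factors and 6 of the 87 members, all of them lower, where 10.8% of all genes were called lower.

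Ndufaf1, a chaperone of the membrane arm, read 10.37, 10.44, 10.38 and 10.47 in WT and 10.08, 10.24, 10.17 and 10.27 in KO. No KO array reached the WT range, and the difference was small, -0.22 (SE 0.09, limma adjusted p = 0.114). Ndufaf3, the partner of Ndufaf4, read 9.92, 9.97, 10.31 and 9.81 in WT and 9.87, 9.41, 9.69 and 9.68 in KO. KO1 lay within the WT range, and the difference was -0.34 (SE 0.14, limma adjusted p = 0.126). Ndufaf6 had no value on KO4, where its spot was marked by the scanner software, and was not tested. It read 8.52, 9.14, 8.93 and 8.98 in WT and 8.52, 8.84 and 8.55 on the other KO arrays, which overlap.

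**Figure D2:**
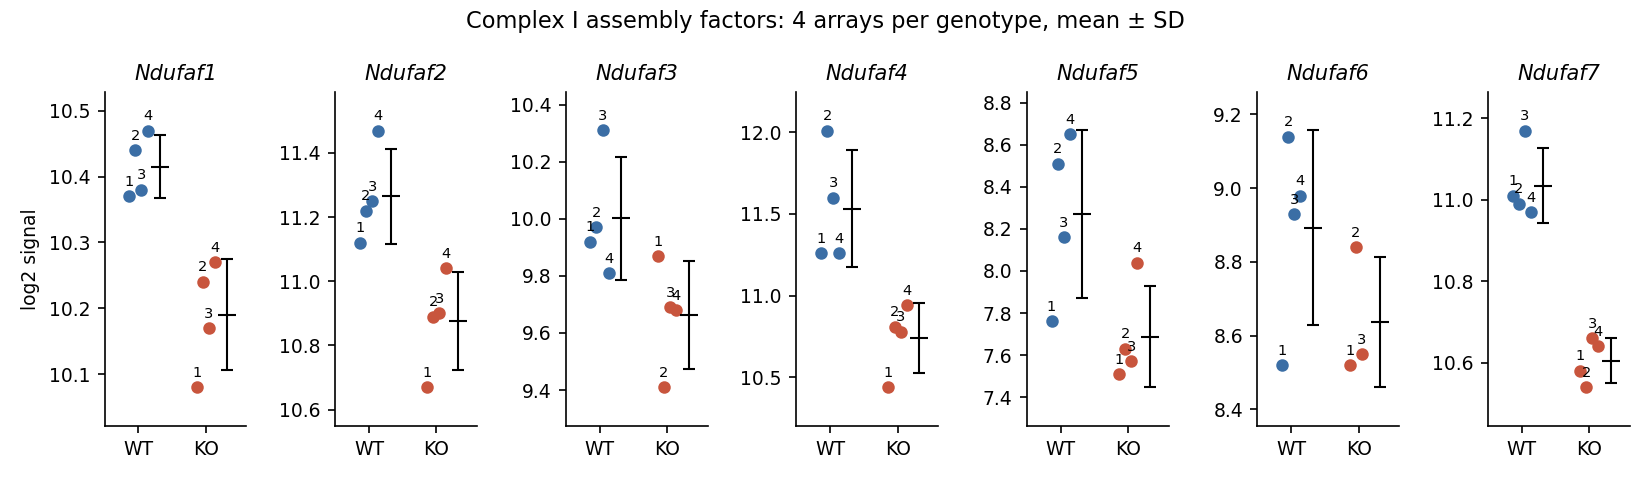
Log2 signal (vertical axis, a separate scale for each gene) of the 7 Ndufaf genes on each WT (blue) and KO (red) array, numbered by replicate, with the mean and SD of the arrays. The KO arrays lie wholly below the WT arrays for Ndufaf1, Ndufaf2, Ndufaf4 and Ndufaf7. Ndufaf6 has 3 KO values.

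Leaving out single arrays moved these calls more than the differences. Without each array in turn the adjusted p of Ndufaf4 ranged from 0.0248 to 0.0767 and that of Ndufaf7 from 0.0272 to 0.0609 in limma, and 0 to 4 of the Ndufaf factors were called. None was called without WT2, WT3, KO1, KO2 or KO3, and 4 were called without WT1. The number called of all genes fell or rose with it, from 3.64% without KO3 to 21.7% without WT1. Every Ndufaf factor tested was lower in KO in each of those fits, and in the fit without both KO1 and KO3, which called 0 of them and 0.343% of all genes.

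The subunits of complex I, 36 genes, had a median difference of -0.10, with 25 lower and 11 higher, and limma called 0 of them. The 7 nuclear-encoded core subunits of the matrix arm, which hold the flavin and the iron-sulfur clusters, were all lower in KO, between -0.38 and -0.09 with a median of -0.21. Ndufs1, the large iron-sulfur subunit, read 13.45, 13.76, 13.64 and 13.89 in WT and 13.26, 13.45, 13.23 and 13.53 in KO. Only the highest 2 KO arrays reached the WT range, and the difference was -0.32 (SE 0.13, limma adjusted p = 0.110). Ndufs8, which carries a pair of iron-sulfur clusters near the quinone, read 11.44, 11.74, 11.57 and 12.12 in WT and 11.11, 11.42, 11.13 and 11.67 in KO, a difference of -0.38 (SE 0.18, limma adjusted p = 0.168, or 0.0439 with the replicate block). Within each replicate number Ndufs8 was lower in KO, while the genotypes as groups overlapped.

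Ndufv1, the NADH-binding subunit, differed by -0.21 (SE 0.12, limma adjusted p = 0.236), from 14.03, 14.26, 14.10 and 14.47 in WT to 13.93, 14.07, 13.92 and 14.08 in KO. KO2 and KO4 lay within the WT range. Ndufv2 differed by -0.31, Ndufs7 by -0.21 and Ndufs3 by -0.09, none past the threshold. The accessory subunits stood nearer to 0 on their brightest probes. Those of the matrix arm had a median of -0.05 (5 lower, 4 higher) and the 19 of the membrane arm -0.07 (12 lower, 7 higher). Dimmer probes of the matrix arm group reached the range of the core subunits in some genes. They differed by -0.34 and -0.37 for Ndufa12, -0.36 and -0.11 for Ndufv3, -0.07 and -0.04 for Ndufs6 and 0.26 for Ndufa7. Ndufab1, the mitochondrial acyl carrier protein, differed by -0.26 (SE 0.13, limma adjusted p = 0.186). A second, dimmer probe of Ndufab1 differed by -0.53. Ndufa4, named for complex I but known to associate with complex IV, differed by 0.23 (SE 0.13, adjusted p = 0.239).

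Complex II has 4 subunits, all nuclear. Each was slightly lower in KO, with a median of -0.13, and limma called 0 of them, also at an unadjusted p under 0.05. Sdha, the flavoprotein that oxidises succinate, read 10.86, 11.05, 10.97 and 11.48 in WT and 10.81, 10.95, 10.55 and 11.08 in KO, a difference of -0.24 (SE 0.17, limma adjusted p = 0.336). Sdhb, the iron-sulfur subunit, read 12.46, 12.93, 12.61 and 13.49 in WT and 12.28, 12.57, 12.38 and 12.82 in KO, a difference of -0.36 (SE 0.23, adjusted p = 0.288). For both genes the genotypes overlapped, and WT4 held the highest value. The membrane anchors Sdhc and Sdhd differed by -0.03 and -0.02, with 95% intervals from -0.26 to 0.21 and from -0.26 to 0.22.

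Complex III was represented by 8 subunits, with a median of -0.08, 6 lower and 2 higher, and 0 past an unadjusted p of 0.05 in limma. On their brightest probes all 8 lay within 0.25 of 0. Uqcrc1, a core protein, read 13.38, 13.66, 13.58 and 13.66 in WT and 13.34, 13.42, 13.22 and 13.60 in KO, a difference of -0.17 (SE 0.12, limma adjusted p = 0.316). A second, dimmer probe of Uqcrc1 differed by -0.26. Uqcrfs1, the Rieske iron-sulfur protein, read 13.73, 13.89, 13.72 and 14.22 in WT and 13.68, 13.84, 13.77 and 14.00 in KO, a difference of -0.07 (95% interval -0.38 to 0.25). The arrays of both genotypes were interleaved.

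In complex V, 14 of 17 members were lower and 3 higher, with a median of -0.08 and 0 called by limma (2 lower at an unadjusted p under 0.05). The 5 genes of the catalytic head differed by between -0.13 and -0.03 on their brightest probes. Atp5b, the catalytic beta subunit, read 16.17, 16.51, 16.29 and 16.72 in WT and 16.15, 16.45, 16.25 and 16.72 in KO, and its difference of -0.03 had a 95% interval from -0.41 to 0.35. Atp5a1, the alpha subunit, and Atp5c1, the gamma shaft, differed by -0.04 and -0.05, with intervals from -0.40 to 0.33 and from -0.36 to 0.26. Dimmer probes differed more, by -0.15 and -0.20 for Atp5b and by -0.22 for Atp5a1. The 9 genes of the stalk and membrane part had a median of -0.06.

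The c ring, the rotor through which protons pass, is encoded by 3 genes, Atp5g1, Atp5g2 and Atp5g3, which give the same mature protein. All 3 were lower in KO. Atp5g1 read 14.04, 14.83, 14.18 and 14.91 in WT and 13.52, 14.02, 13.54 and 14.39 in KO, and Atp5g2 read 15.35, 15.65, 15.31 and 15.60 in WT and 15.09, 15.21, 15.10 and 15.32 in KO. In both genes 1 KO array, KO4, reached the lower part of the WT range. The differences were -0.62 (SE 0.27, limma adjusted p = 0.133) for Atp5g1 and -0.30 (SE 0.12, adjusted p = 0.104) for Atp5g2. A second, dimmer probe of Atp5g2 differed by -0.02. With the replicate block, Atp5g1 was called (SE 0.10, limma adjusted p = 0.0205), and it was lower in KO within each replicate number. Atp5g3 read 15.50, 16.02, 15.71 and 16.01 in WT and 15.47, 15.57, 15.55 and 16.08 in KO, a difference of -0.14 (95% interval -0.55 to 0.26).

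Complex IV had a median of -0.01 over 15 tested members, 8 lower and 7 higher, and limma called 0 of them (1 higher at an unadjusted p under 0.05). The 10 subunits found in most tissues had a median of -0.02. Cox4i1, the largest nuclear-encoded subunit, read 16.59, 16.71, 16.61 and 17.09 in WT and 16.56, 16.91, 16.68 and 17.06 in KO, a difference of 0.05 (95% interval -0.30 to 0.41), or of -0.12 when arrays were scaled to their 75th percentile. Cox5a, which binds thyroid hormone metabolites, differed by -0.16 (SE 0.20) and Cox5b, the zinc-binding subunit, by -0.01 (SE 0.16). For these 3 genes the difference was smaller than the SD among the WT arrays (0.23, 0.35 and 0.29). Cox7a2l, known as a supercomplex factor and not a subunit, read 12.57, 11.77, 12.45 and 11.85 in WT and 12.61, 12.47, 12.57 and 12.13 in KO, a difference of 0.28 (SE 0.21, limma adjusted p = 0.362).

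Of the isoforms known from heart, skeletal muscle and brown fat, Cox8b, Cox7a1 and Cox6a2 varied widely from array to array. Cox8b, the isoform of Cox8a in those tissues, read 8.16, 9.45, 11.45 and 11.83 in WT and 12.33, 12.99, 11.60 and 11.75 in KO. WT1 and WT2 were low, and the other 2 WT arrays lay near the lowest KO arrays. The difference was 1.95 (SE 0.78, 95% interval 0.18 to 3.71, limma adjusted p = 0.110), and it did not pass the threshold in any of 17 other settings (lowest adjusted p 0.0631). Cox8a, its general partner, differed by -0.03 (SE 0.16).

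Markers of brown adipocytes varied widely too. Ucp1, the uncoupling protein of brown fat, read 3.02, 1.74, 11 and 11.09 in WT and 9, 12.85, 11.43 and 5.80 in KO, and was well above background on 2 WT arrays and on all KO arrays. WT1 and WT2, low for Cox8b, were the arrays on which Ucp1 was not above background, whereas KO4 read 11.75 for Cox8b and 5.80 for Ucp1. Limma called 0 of 5 brown adipocyte markers, and their summed level ran from 9.14 to 11.83 in WT and from 9.94 to 13.02 in KO. The summed level of the 11 adipocyte markers ran from 18.49 to 18.97 in WT and from 18.96 to 19.44 in KO. The part of these cells in the Cox8b values was not tested.

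Cox7a1, the muscle and brown fat isoform of Cox7a2, read 9.26, 10.59, 10.43 and 11.77 in WT and 9.90, 10.87, 9.72 and 10.61 in KO, a difference of -0.24 (95% interval -1.36 to 0.89). Its WT arrays spanned the whole KO range. Cox7a2 differed by -0.04 (SE 0.18). Cox6b2, known from testis, differed by -0.19 (SE 0.12, limma adjusted p = 0.273) and Cox6b1 by -0.07 (SE 0.14).

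Cox6a2, the isoform of heart and skeletal muscle, read 5.39, 5.82, 5.66 and 5.27 in WT and 7.39, 5.49, 8.46 and 4.95 in KO. KO1 and KO3 were high, and the other KO arrays lay within or below the WT range. The difference was 1.04 (SE 0.70, limma adjusted p = 0.314), and without KO1 and KO3 it was -0.32. Skeletal muscle genes were high on the same 2 arrays: Myh4, a fast myosin, read 9.48 and 10.94 there and between 2 and 3.18 on the other 6 arrays. Of 11 skeletal muscle markers on the array 8 were tested and 1, Tnnt3, was called lower. Their summed level ran from 11.20 to 11.43 in WT and from 10.81 to 13.58 in KO, and Ckm, Myh4 and Pvalb were above background on KO1 and KO3 only. Cox6a1, the general partner, differed by 0.07 (SE 0.09), or by -0.06 when arrays were scaled to their 75th percentile.

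**Figure D3:**
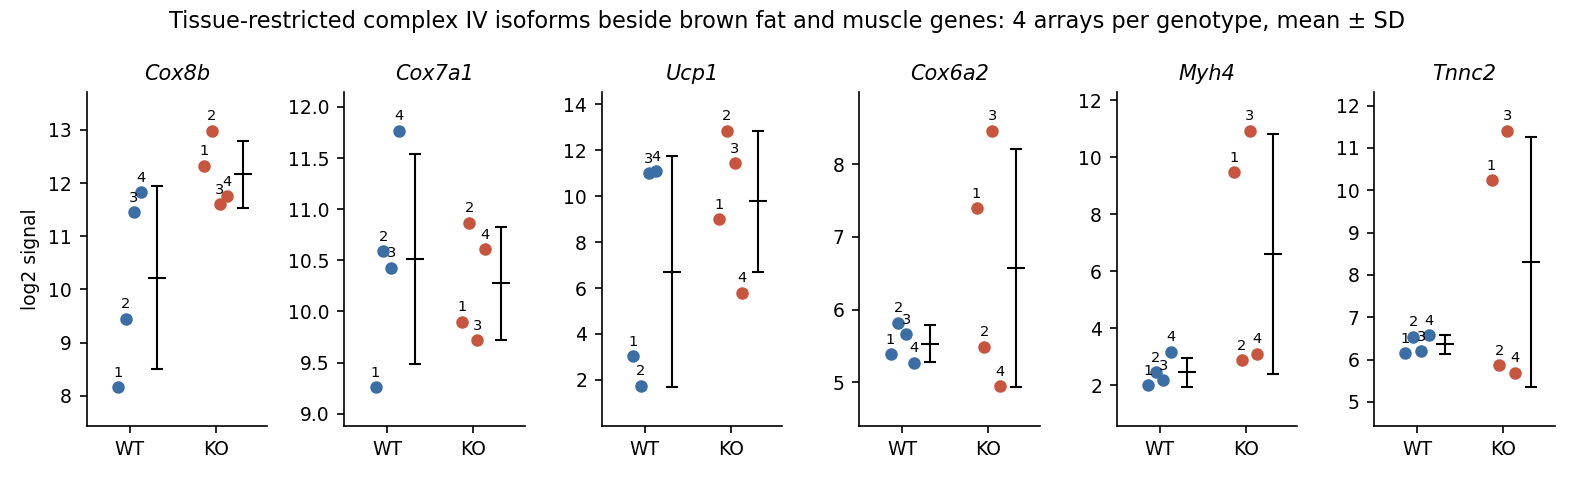
Log2 signal (vertical axis, a separate scale for each gene) on each WT (blue) and KO (red) array, numbered by replicate, with mean and SD, for the isoforms Cox8b, Cox7a1 and Cox6a2, the brown fat gene Ucp1 and the muscle genes Myh4 and Tnnc2. KO1 and KO3 are high for Cox6a2, Myh4 and Tnnc2, and WT1 and WT2 are low for Cox8b and Ucp1.

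Cox4i2, the isoform of lung that answers to low oxygen, was above background on 2 WT arrays and 0 KO arrays (3.44 to 3.98 in WT, 2.97 to 3.22 in KO) and was not tested. Its WT mean of 3.66 lay under the detection level of the KO arrays, 3.82, so no fold is given. Cox7b2 and Cox8c were not well above background on any array. No probe matched Ndufa4l2, Ndufaf8, Ndufb1, Ndufb4b or Ndufb4c, nor any of the 13 subunits encoded in mitochondrial DNA.

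The subunits moved together from array to array. On each array the median deviation of the 79 tested subunits from their WT means was -0.21, 0.05, -0.13 and 0.31 in WT and -0.21, -0.06, -0.20 and 0.17 in KO. Replicate 4 was the highest and replicates 1 and 3 the lowest in both genotypes. Of the 79 subunits, 69 were highest on WT4 among the WT arrays, 70 on KO4 among the KO arrays, and 66 on both. The SD among WT arrays, 0.24 in the median subunit, exceeded the genotype difference for 61 of them. On WT4 and KO4 the 75th percentile of the log2 signal before scaling was 9.15 and 9.13, within 9.02 to 9.54 over all arrays, and 68.5% and 68.3% of probes were above background. What set these arrays apart was not tested.

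Compared within replicate numbers, the median subunit differed by -0.01, -0.12, -0.06 and -0.13. Of the 79 subunits, 23 were lower in KO in all 4 pairs and 2 higher, a share not counted over all genes. The direction of this small shift rested on the arrays that were used: 57 of 79 subunits were lower with all arrays (median -0.07), 34 without WT4 (median 0.03) and 22 without KO1 and KO3 (median 0.05). When arrays were scaled to their 75th percentile, 74 were lower and the median was -0.21, where that of all genes moved from -0.02 to -0.05. With the mean of a gene's probes in place of the brightest, 58 subunits were lower and the median was -0.09. The Ndufaf factors followed this order of arrays only in part: WT1 was the lowest WT array and KO4 the highest KO array, but WT4 was not the highest. Their deviations were -0.11, 0.00, 0.03 and 0.00 in WT and -0.52, -0.54, -0.37 and -0.27 in KO, with every KO array below every WT array. Within replicate numbers their median differed by -0.36, -0.50, -0.55 and -0.32, and all 6 were lower in KO in all 4 pairs. The share of all genes lower in all 4 pairs was not counted.

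**Figure D4:**
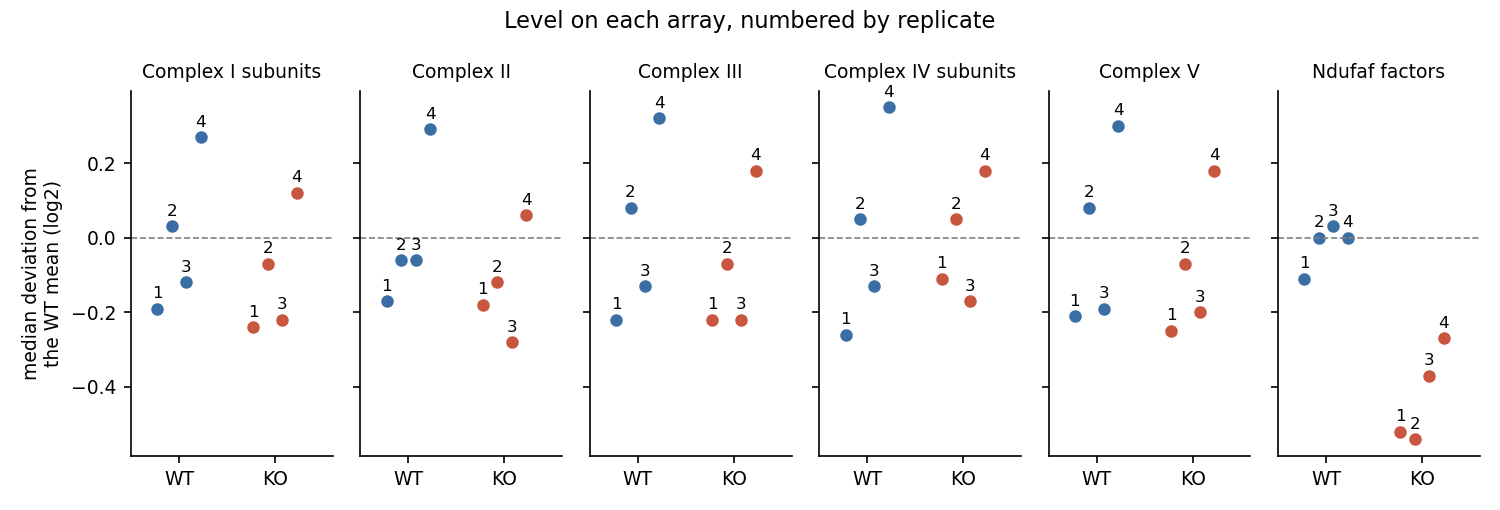
Median deviation from the WT mean (log2, vertical axis) of the tested genes of each complex and of the Ndufaf factors, on each WT (blue) and KO (red) array, numbered by replicate. In each complex the arrays of both genotypes interleave, with WT4 and KO4 the highest of their genotype, while the Ndufaf factors lie between -0.11 and 0.03 in WT and between -0.54 and -0.27 in KO.

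Genes of the chain and of the processes that serve it, whose symbols fall outside the naming rule, were read from 8 lists of 132 genes. These lists included the 13 subunits encoded in mitochondrial DNA, and 108 genes were tested. Limma called 14 of them lower (13.0%) and 2 higher in KO, against 8.96% and 7.53% of all genes. Called or not, 52.4% of all genes were lower in KO. In a list of assembly factors with other names, 33 of 39 genes were lower, with a median of -0.22, and 7 were called lower. That list was drawn broadly and also held genes with other roles, such as Lrpprc and Taco1, which act on mitochondrial mRNAs. Together with the Ndufaf factors, 39 of these 45 genes were lower and 9 (20.0%) were called lower, Lrpprc and Taco1 among them. Ecsit, a complex I assembly factor also known from innate immune signalling, read 12.51, 12.77, 12.80 and 12.76 in WT and 11.98, 12.04, 12.14 and 12.22 in KO, a difference of -0.61 (SE 0.11, limma adjusted p = 0.0142). Lrpprc, which stabilises mitochondrial mRNAs, read 11.77, 11.87, 11.85 and 11.68 in WT and 11.22, 11.31, 11.28 and 11.35 in KO, a difference of -0.50 (SE 0.09, adjusted p = 0.0149). Neither gene overlapped between genotypes.

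Coa4, a factor of complex IV, differed by -0.56 (SE 0.11, limma adjusted p = 0.0180), from 9.65 to 9.91 in WT to 9.06 to 9.39 in KO. The others called lower, named after their values were seen, were Sdhaf1 of complex II, Bcs1l, which inserts the Rieske protein in complex III, Foxred1 of complex I and Taco1, a translational activator of the mitochondrial COX1 mRNA. They differed by between -0.42 and -0.53. These members of the list serve 4 of the 5 complexes.

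Coenzyme Q, the lipid that carries electrons from complexes I and II to III, is made by a set of enzymes of which 9 of 10 tested were lower in KO, with a median of -0.38. Coq4, a protein of that set, read 9.93, 10.30, 10.18 and 10.03 in WT and 9.45, 9.53, 9.49 and 9.71 in KO, a difference of -0.56 (SE 0.11, limma adjusted p = 0.0196). Coq5, a methyltransferase, read 9.46, 9.78, 9.53 and 9.69 in WT and 9.22, 9.35, 9.14 and 9.08 in KO, a difference of -0.42 (SE 0.11, adjusted p = 0.0392). In both genes every KO array lay below every WT array.

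Among the 9 tested electron carriers and other dehydrogenases, limma called 1, and it was higher in KO. Etfdh passes electrons from fatty acid oxidation to coenzyme Q. It read 12.24, 11.68, 12 and 12.11 in WT and 12.67, 12.91, 12.94 and 12.69 in KO, a difference of 0.79 (SE 0.14, adjusted p = 0.0149), and the genotypes did not overlap. Cyc1, cytochrome c1 of complex III, stood in the same list and differed by -0.37 (SE 0.20, limma adjusted p = 0.225).

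Of 15 regulators tested, 1 was called higher and 1 lower, where 7.53% of all genes were called higher and 8.96% lower. Ppargc1a, a coactivator of mitochondrial genes abundant in brown fat and muscle, read 7.15, 6.22, 7.57 and 7.73 in WT and 8.07, 8.19, 9.12 and 8.33 in KO, a difference of 1.26 (SE 0.36, limma adjusted p = 0.0453) with no overlap. This call held in 7 of 17 other settings. The limma adjusted p of Ppargc1a reached 0.109 with 1 array left out and 0.213 without KO1 and KO3. Its highest value was on KO3, an array high in skeletal muscle genes, and the part of muscle in it was not tested. Tfb1m, which methylates mitochondrial ribosomal RNA, differed by -0.53 (SE 0.12, adjusted p = 0.0274), from 10.20 to 10.55 in WT to 9.67 to 10.07 in KO. Ppargc1b differed by -0.29 (SE 0.21, adjusted p = 0.339) and Tfam, which packages mitochondrial DNA, by 0.03 (SE 0.11). Esrra had no value on KO2 and was not tested.

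In the citric acid cycle and pyruvate dehydrogenase list 12 of 14 genes were lower (52.4% of all genes were), with a median of -0.28. Cs, citrate synthase, read 15.88, 16.03, 15.62 and 16.13 in WT and 15.07, 15.29, 15.19 and 15.71 in KO, and was called lower (-0.60, SE 0.17, limma adjusted p = 0.0446), with KO4 above WT3. Of 18 genes of carriers, import and inner membrane structure 12 were lower. Limma called 3 of them lower, all of the import machinery, where 8.96% of all genes were called lower. They were Tomm40, the pore of the outer membrane (-0.82, SE 0.18, adjusted p = 0.0244), Timm23, the channel of the inner membrane (-0.45, SE 0.10, adjusted p = 0.0230), and the receptor Tomm22 (-0.34, SE 0.09, adjusted p = 0.0415). Tomm22 was not called with the replicate block (adjusted p = 0.0690). Other import genes of the list were not called: Tomm20 differed by -0.09, Timm44 by -0.16 and Timm17a by 0.11. Of the 3 uncoupling proteins 0 were called by limma, also at an unadjusted p under 0.05.

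**Figure D5:**
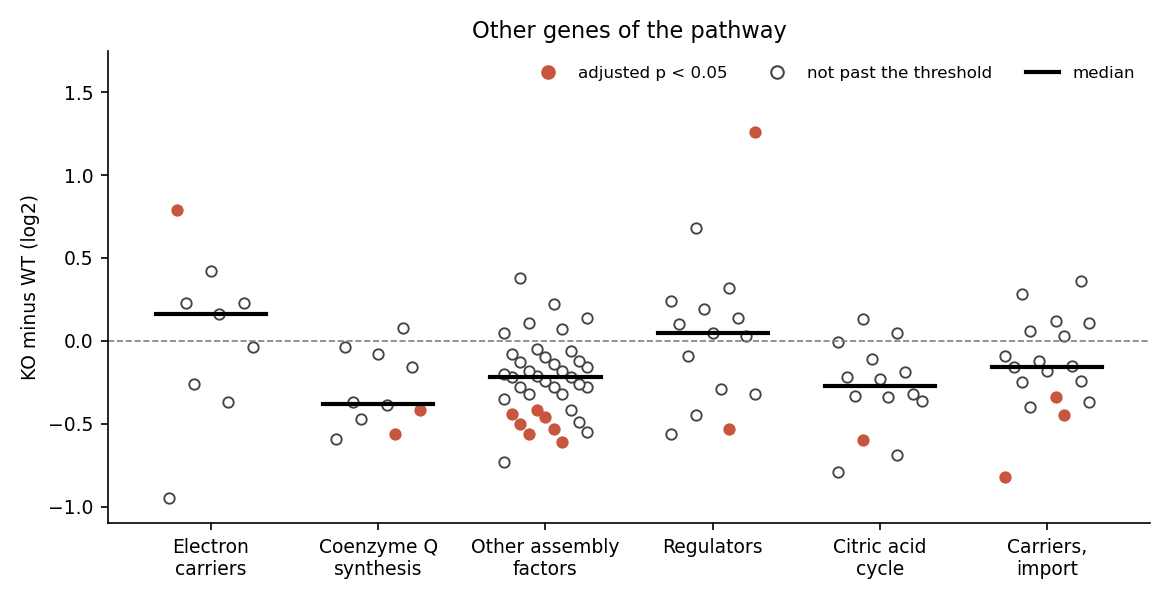
KO minus WT difference (log2, vertical axis) of each tested gene of 6 lists of other genes of the pathway, with filled points for an adjusted p under 0.05 and a bar at the median. The filled points lie below 0 in 5 of the 6 lists, and Etfdh and Ppargc1a are the 2 filled points above 0.

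The number of calls in these lists moved with the arrays too. Between 1 (without KO3) and 16 (without KO4) of the pathway genes were called lower when an array was left out, and 0 without both KO1 and KO3. Ecsit was called whichever single array was left out (limma adjusted p 0.0103 to 0.0461), but not without both KO1 and KO3 (0.136).

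Promoter letters were searched in the 75 members with a promoter sequence of 300 bases in RefSeq (250 before to 50 after the start), on both strands, beside 27025 genes. The NRF1 letters GCGCATGC were found in 12 members (16.0%) and in 3.05% of all genes. Those members were Atp5g2, Atp5k, Atp5l, Cox6a1, Ndufa11, Ndufa6, Ndufa8, Ndufaf4, Ndufaf5, Sdhb, Uqcr11 and Uqcrc1, so 2 of the 6 Ndufaf genes with a sequence and 10 of 67 subunits held them. The GABPA letters CCGGAAG were found in 18 members (24%) and in 9.93% of all genes, among them Ndufaf1 and Ndufs8. The YY1 letters AAGATGGC were found in 10 members (13.3%), all subunits, and in 3.19% of all genes, and the ESRRA letters TCAAGGTCA in 2 members (2.67%) and in 0.466% of all genes. The differences of the 12 members with the NRF1 letters ran from -0.79 to 0.12, with a median of -0.13, and their 1 called gene was Ndufaf4.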

How the data were processed

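The authors hybridised Cy3-labelled RNA to one-colour Agilent 4x44K mouse arrays, 1 per sample. Genotypes and replicate numbers came from the labels, and the methods call the replicates independent biological sets. The deposited scanner output held intensities that Agilent Feature Extraction (10.7 in the submitters' processing notes) had background-subtracted and detrended within each array. A deposited matrix of log2 values, which the authors had quantile-normalized in GeneSpring and which had a column median of 6.32, was used as an alternative only.

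Here log2 of the processed intensities was quantile-normalized with limma 3.58.1 in R 4.3.3, where the spots marked as outliers (64 to 100 per array) were left out. Accessions of 27479 of 41174 probes matched 18749 symbols through the RefSeq table of GRCm38.p6. Probes detected well above background in 4 of 4 arrays of WT, of KO or of both were kept, the brightest probe stood for a gene, and 14137 genes were fitted with limma on genotype alone. The step was tested on simulated data. The number of arrays limits the precision.

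The members and lists were chosen with earlier results of these data known. Named genes were the called members, the core or catalytic members, the isoform pairs, called genes of the other lists (3 per list by smallest p) and 4 regulators; 1 of the core members is not reported here, and members named beyond that were chosen after their values were seen. Deviations from the group means correlated at 0.22, 0.16, 0.30 and 0.28 between arrays of the same replicate number. Between different numbers they ran from -0.32 to 0.34, with 4 of 12 pairs over 0.1. Those 4 joined replicate 1 with 3 or 2 with 4, and WT1 with KO3, at 0.34, exceeded every same-number pair. As every same-number pair was over 0.1, a fit with the number as a block was run. The sample titles do not say that equal numbers were paired. Other scalings, filters, probe rules, the methods' t-test and leaving out arrays were tried. Marker lists of endothelium (0 of 7 called), pericytes (0 of 5) and macrophages (0 of 5 tested) did not enter the text above.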

Additional observations from a re-analysis of the deposited data

Results flagged for a closer look

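In 6 of the 126 groups of 4 arrays looked at, 1 array stood apart from the other 3 by more than Dixon's 95% critical value, where chance alone sets apart about 1 in 20 groups. KO4 stood high among the KO arrays for 4 genes. It read 12.52 for Sdhc (the others 12.28 to 12.32), 16.08 for Atp5g3 (15.47 to 15.57), 10.87 for Foxred1 (10.61 to 10.64) and 7.93 for Tomm40 (7.29 to 7.39). WT1 stood low for Ecsit, at 12.51 beside 12.76 to 12.80. KO2 stood low for Sdhaf1, at 10.84 beside 11.04 to 11.08.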

How the results depend on the processing

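Every Ndufaf factor tested was lower in KO in all 17 other settings fitted with limma, while the number called moved. Of the members, 2 were called lower. That count was 1 with the mean of a gene's probes, 6 with the replicate block, 7 by the methods' t-test without adjustment (2 after Benjamini-Hochberg), 0 to 4 with 1 array left out, and 0 without KO1 and KO3, an alternative chosen after seeing the data. The Ndufaf factors made up 2, 1, 4, 0 to 4 and 0 of these (not counted for the t-test). Of the subunits, 0 were called lower, 2 with the replicate block and 1 (Cox4i2, not above background on any KO array) with no filter on dim probes. Of the other pathway genes, 14 were called lower, with 1 to 16 when 1 array was left out and 0 without KO1 and KO3. The 2 called higher became 1 with no filter, 1 with the mean of probes, 0 to 2 with 1 array left out and 0 without KO1 and KO3. With scaling to the 75th percentile Cox6a1 turned from 0.07 to -0.06 and Cox4i1 from 0.05 to -0.12. The cause of these shifts was not tested, beyond the fewer arrays where some were left out. No called value changed sign. Over 55 genes refitted under the other settings, 762 of 935 values kept their direction and side of the threshold, 110 were no longer called, 9 became called and 54 turned direction without being called. Of 139 group medians 15 turned sign. Among these 55 genes, the replicate block changed no call other than those given beside the gene. Other genes named above, such as the cell type markers, were not followed in this way. The planned normexp correction on mean signals was not run, as the scanner output read here holds median and background signals but not that column, and was run on median signals instead. Signals near background limit Cox4i2, Cox7b2 and Cox8c.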
